A study of Homo sapiens with 9 samples.

Results

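The angiogenic and secreted factors of the hypoxia response described here are VEGFA, VEGFB, VEGFC, PGF, ANGPT1, ANGPT2, ANGPTL4, ADM, STC1 and STC2. These 10 genes were picked by name, and every probe whose accession belongs to one of them in RefSeq was taken, which gave 11 of the 58201 probes on the array and 10 of the 47753 genes. VEGFA had 2 probes and each other gene had 1. RNA came from OEC-M1, a head and neck squamous cell carcinoma (HNSCC) cell line. Cells were transfected for 72 h with non-targeting siRNA (si-Control), with siRNA against GATA3 or with siRNA against HIF-1α. All 3 groups were kept at 1% O2 for 18 h, so hypoxia is common to them and no group shows the cells at normal oxygen. Each group had 3 Agilent 1-colour arrays, and the supplementary legend names a single siRNA per target, so an effect of that siRNA and one of its target cannot be told apart. The labels do not say whether the 3 samples of a group came from separate cultures, so the P values measure only the spread between these arrays. RNA came from whole cultures, in which fewer expressing cells and less RNA per cell cannot be told apart.

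HIF-1 is a transcription factor made of the oxygen-labile subunit HIF-1α and its stable partner. When oxygen is low HIF-1α escapes degradation, and HIF-1 switches on genes for glycolysis, pH control and blood vessel growth. Among the secreted products are VEGFA, the main growth factor for endothelial cells, and adrenomedullin (ADM), a peptide that relaxes vessels. GATA3 is a transcription factor that binds a different DNA motif. The study asked how the gene programme of hypoxic HNSCC cells depends on both proteins, and VEGFA is one of the HIF-1 targets it followed. By real-time RT-PCR under hypoxia it reported that GATA3 knockdown lowered VEGFA, CA9, PGK1, SLC2A1 and SLC2A3 mRNA in OEC-M1 cells. It also reported GATA3 and HIF-1α at the hypoxia response element of the VEGFA promoter by chromatin immunoprecipitation. From protein assays it proposes that GATA3 binds HIF-1α protein and slows its degradation. By real-time RT-PCR it found no significant effect of GATA3 on HIF-1α mRNA. Those assays are separate from the arrays described here.

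ADM, ANGPTL4 and STC2 were the 3 genes counted in at least 1 comparison with or without a block, and the 250 bases before their annotated starts are shown with the HIF core motif in capitals. The core was searched as ACGTG and GCGTG on both strands, so that a match on the opposite strand reads CACGT or CACGC. The sequences are from RefSeq on build GRCh38.p14 and are written 5′ to 3′ on the strand of the gene.
ADM, chr11:10304823-10305072, plus strand: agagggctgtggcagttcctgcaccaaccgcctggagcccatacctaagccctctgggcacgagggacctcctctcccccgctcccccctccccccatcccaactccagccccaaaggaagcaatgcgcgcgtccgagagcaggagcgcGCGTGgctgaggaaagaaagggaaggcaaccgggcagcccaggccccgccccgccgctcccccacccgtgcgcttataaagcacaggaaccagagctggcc
ANGPTL4, chr19:8363905-8364154, plus strand: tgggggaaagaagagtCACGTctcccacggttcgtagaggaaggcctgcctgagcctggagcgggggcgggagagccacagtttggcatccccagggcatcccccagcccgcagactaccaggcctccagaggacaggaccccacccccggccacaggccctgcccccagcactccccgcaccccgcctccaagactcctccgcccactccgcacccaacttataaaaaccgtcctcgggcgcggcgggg
STC2, chr5:173328415-173328664, minus strand: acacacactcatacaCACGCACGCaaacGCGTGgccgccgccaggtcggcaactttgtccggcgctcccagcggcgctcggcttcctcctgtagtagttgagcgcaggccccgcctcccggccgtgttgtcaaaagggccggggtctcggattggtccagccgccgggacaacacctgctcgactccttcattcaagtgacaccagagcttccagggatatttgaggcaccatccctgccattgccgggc

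ADM held 1 match, GCGTG, from 101 to 97 bases before the start. ANGPTL4 held 1 match to ACGTG on the opposite strand, from 234 to 230 bases before the start. STC2 held 3 matches to GCGTG between 235 and 218 bases before the start, and a pair of them share 1 base. A window was found for 6 of the 10 genes. VEGFA, ANGPT1, ANGPT2 and STC1 had none, so their promoters were not searched. Each of the 6 had a HIF core in at least 1 window. Of all 35116 promoter windows of the same length, 43.2% had one. The former is counted by gene and the latter by window, and PGF also had a window without a core. ACGTG alone was in 18.5% of all windows, and among the 6 genes only ANGPTL4 had it. The windows are rich in G and C, with 68% in ADM, 68.8% in ANGPTL4 and 63.6% in STC2, and GCGTG itself is a GC-rich word. The GATA words, which are AGATAA and AGATAG and also TGATAA and TGATAG, were in 22.3% of all windows on either strand and in 0 of the 6 genes' windows. A match is only a stretch of letters, and binding was not measured on these arrays.

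Levels are given as normalized log2 intensity, on which a step of 1 is a doubling. Outside the marker sums and the choice of a gene's brightest probe, no probe's level is compared with another's. Before normalization the median spot of an array read from 992.5 to 2807.5 in si-Control, from 1410 to 2452 after GATA3 knockdown and from 2132 to 3560 after HIF-1α knockdown. The si-Control replicate 3 was the dimmest array, and it held the highest of the 3 si-Control values for 8 of the 11 probes and the lowest for 1. The scanner software marked 9 of the 10 genes as well above background on all 9 arrays. ANGPT1 was marked on 1 si-Control array, 1 HIF-1α knockdown array and 0 GATA3 knockdown arrays. The same mark was given to between 73.3% and 88% of all probes on an array, so it is not a strict filter. Of 8 epithelial markers 7 were well above background on all 9 arrays, among them KRT14, KRT17, KRT18 and EPCAM, whereas KRT5 was on none. Of 8 endothelial markers 4 were, with ERG on none, and of 6 fibroblast markers 3 were, with COL3A1 on none. Of 4 leukocyte markers 3 were well above background on all 9 arrays, PTPRC among them. The log2 of the summed intensities of the leukocyte markers ranged from 15.34 to 16.68 in si-Control, from 15.86 to 16.57 after GATA3 knockdown and from 16.66 to 16.73 after HIF-1α knockdown. In the same order of groups, that of the fibroblast markers ranged from 15.67 to 17.04, from 16.17 to 16.63 and from 16.30 to 16.66, and that of the endothelial markers from 13.98 to 14.86, from 14.12 to 14.82 and from 14.41 to 14.87. That of the epithelial markers ranged from 18.70 to 19.79, from 18.13 to 19.27 and from 18.88 to 19.64. Such a sum is led by the brightest probes of a list, and that of the leukocyte markers by PTPRC (mean 16.13 in si-Control). In GATA3 knockdown 8 of the 8 epithelial markers were below si-Control, with a median log2 fold change of −0.33, and 7 or 8 were below it under the other scalings, while 0 were counted in limma with or without the block. At the unadjusted threshold the fibroblast marker DCN was counted as lower in GATA3 knockdown (log2 fold change −1.08, SE 0.37), and with the slide as a block the leukocyte marker CD14 was too (−0.68, SE 0.28). In HIF-1α knockdown 1 of the 4 leukocyte markers was counted as higher, and 0 with the block. In the direct comparison 1 epithelial, 1 fibroblast and 1 leukocyte marker were counted as lower, with or without the block. Of all genes 5.23% were counted in HIF-1α knockdown, 2.97% in GATA3 knockdown and 12% in the direct comparison. With the block these shares were 8.41%, 4.99% and 18.7%. The part of the markers in the results was not tested.

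Both siRNAs lowered their target. HIF1A fell by 2.32 on the log2 scale in HIF-1α knockdown (SE 0.35, adjusted P = 0.295, limma) and GATA3 fell by 1.27 in GATA3 knockdown (SE 0.34, adjusted P = 1, limma), both counted at the unadjusted threshold, with the same direction on all 3 slides. HIF1A mRNA was at −0.05 in GATA3 knockdown (SE 0.35).

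Of the 10 genes, 1 was counted at an unadjusted P of 0.05 in HIF-1α knockdown, and it was ADM, which fell. Across all genes tested, 5.23% were counted in that comparison and 3.28% were counted as lower. In GATA3 knockdown 0 of the 10 were counted in limma, with 2.97% of all genes counted. In GATA3 knockdown directly against HIF-1α knockdown 1 of the 10 was counted, STC2, which was higher in GATA3 knockdown, with 12% of all genes counted and 6.93% counted as higher. The 9 arrays lay on 3 slides, each with 1 array of every group, and the slide had the same number as the replicate. With the slide as a block, 3 of the 10 were counted in HIF-1α knockdown (ADM, ANGPTL4 and STC2, all lower), 1 in GATA3 knockdown (STC2, higher), and 2 in the direct comparison (ANGPTL4 and STC2). In that fit 8.41%, 4.99% and 18.7% of all genes were counted in the 3 comparisons, with 5.29% lower in the first, 2.88% higher in the second and 10.5% higher in the third. After Benjamini-Hochberg adjustment over all genes in limma, 0 of the 10 passed without the block, where 0 genes of the whole array passed in either knockdown although 2478 and 1418 were counted at the unadjusted P. Over the whole array 2 genes passed without the block in the direct comparison. With the block, 1 of the 10 passed, STC2 in the direct comparison (adjusted P = 0.049, limma), where 118 genes of the whole array passed, which is 0.249% of those tested, with 0.226% higher. With the block 10 genes of the whole array passed in HIF-1α knockdown and 0 in GATA3 knockdown, none of them among the 10 described here. The median log2 fold change of the 10 genes was −0.23 in HIF-1α knockdown and 0.02 in GATA3 knockdown, where the medians of all genes were −0.01 and −0.02. Both knockdowns were set against the same si-Control arrays.

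**Figure D1:**
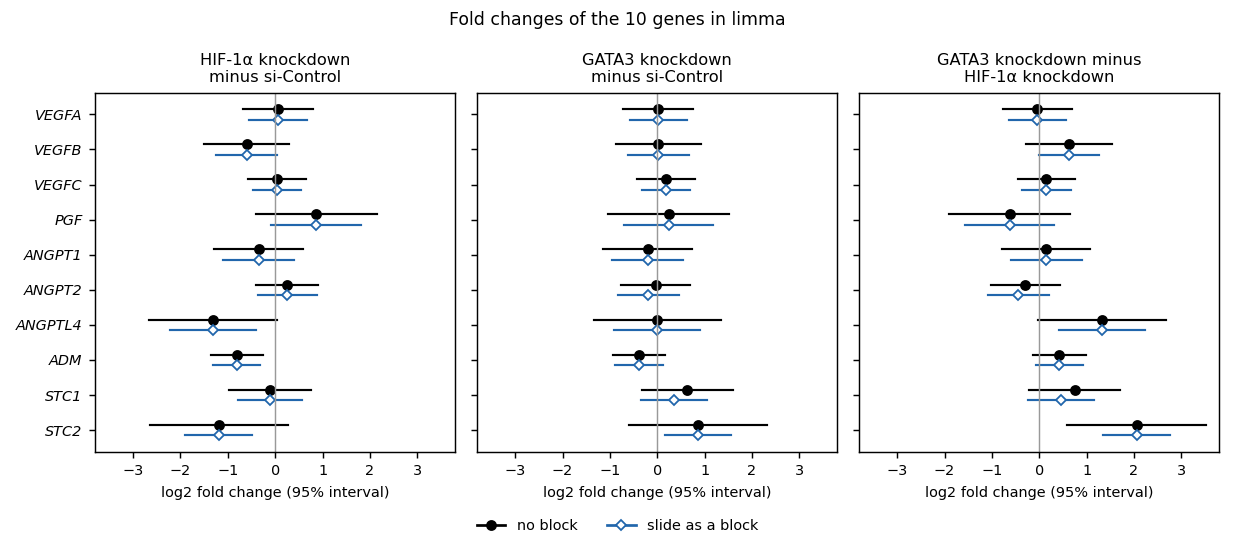
Log2 fold change of the 10 genes in limma (horizontal axis) in HIF-1α knockdown, in GATA3 knockdown and in GATA3 knockdown minus HIF-1α knockdown, 3 arrays a group before spots left out, with bars for the 95% interval. Filled circles are the fit without a block and open diamonds the fit with the slide as a block. ADM on the left and STC2 on the right have circles whose intervals do not cross 0. ANGPT1 is drawn although it was well above background on only 2 of the 9 arrays.

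ADM, the vessel-relaxing peptide, was measured by 10 spots on each array, which are repeats of the same probe and not replicates of a condition. Its level was 18.07, 17.39 and 17.50 on the 3 si-Control arrays, 17.49, 17.15 and 17.16 in GATA3 knockdown and 16.95, 16.82 and 16.76 in HIF-1α knockdown. Every HIF-1α knockdown array was below every si-Control array and below every GATA3 knockdown array. After HIF-1α knockdown ADM fell by 0.81 on the log2 scale, which is 1.75-fold (SE 0.25, 95% interval −1.37 to −0.25, adjusted P = 0.823, limma) and was counted. Within slides 1, 2 and 3 the difference was −1.12, −0.56 and −0.75. Such a fall on all slides was seen in 22.3% of all genes with a value on every array, and groups that do not overlap, in this direction, in 8.79% of all genes. At the unadjusted threshold ADM was counted under all 14 other settings and with each of the 9 arrays left out, between −1.06 and −0.60. With the array's median intensity as a covariate the log2 fold change was −0.92.

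In GATA3 knockdown ADM was at −0.38 (SE 0.25, 95% interval −0.94 to 0.17, adjusted P = 1, limma), with all 3 slides below 0, as in 14.5% of all genes, and groups that overlapped. The order of the group means was si-Control, GATA3 knockdown, HIF-1α knockdown. The 2 steps between neighbours in that order did not pass the unadjusted threshold, the second being 0.42 (SE 0.25, 95% interval −0.13 to 0.98). The groups of the second step did not overlap, which was so, in this direction, for 12.1% of all genes. With the processed signal at 75th percentile scaling the second step was 0.83 and was counted. Spots of 1 array spread with an SD between 0.14 and 0.27.

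**Figure D2:**
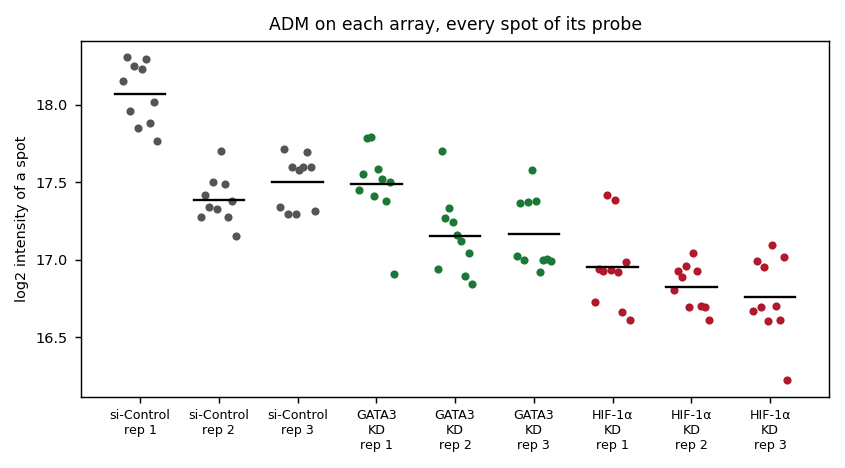
Normalized log2 intensity (vertical axis) of each of the 10 spots of the ADM probe on the 9 arrays, with a line at the mean of an array. The array means ran from 17.39 to 18.07 in si-Control, from 17.15 to 17.49 after GATA3 knockdown and from 16.76 to 16.95 after HIF-1α knockdown, while single spots of neighbouring groups overlapped.

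ANGPTL4 is a secreted protein that inhibits lipoprotein lipase and acts on vessel walls. Its level was 14.99, 15.49 and 16.83 in si-Control, 16.39, 14.67 and 16.26 in GATA3 knockdown and 14.66, 13.60 and 15.11 in HIF-1α knockdown. HIF-1α knockdown held the lowest array of each slide, but the groups overlapped. After HIF-1α knockdown it stood at a log2 fold change of −1.31 (SE 0.60, 95% interval −2.66 to 0.03, adjusted P = 0.823, limma), an interval that just includes 0. With the slide as a block ANGPTL4 was counted at the same fold change (SE 0.40, 95% interval −2.22 to −0.41, adjusted P = 0.511, limma). Within slides the difference was −0.33, −1.90 and −1.72. It was counted in 5 of 14 other settings, and it was also counted without si-Control replicate 1 (−1.70), GATA3 knockdown replicate 2 (−1.31) or HIF-1α knockdown replicate 3 (−1.64). Without the dim si-Control replicate 3 it was −0.78, and with array brightness as a covariate −0.73, and neither was counted.

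In GATA3 knockdown ANGPTL4 was at 0.00 (SE 0.60, 95% interval −1.34 to 1.35, adjusted P = 1, limma), and its direction differed between slides, with 1.40 on slide 1, −0.83 on slide 2 and −0.56 on slide 3. The interval allows a change of up to 2.55-fold. In the direct comparison ANGPTL4 was higher on all 3 slides in GATA3 knockdown, by 1.73, 1.07 and 1.15, as were 19.9% of all genes, and the log2 fold change was 1.32 (SE 0.60, 95% interval −0.03 to 2.66, adjusted P = 0.419, limma). That was counted with the block (SE 0.40, 95% interval 0.41 to 2.22, adjusted P = 0.197, limma).

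Stanniocalcins are secreted glycoproteins that act on calcium and phosphate handling, and STC2 is also known as a stress-induced gene. STC2 was at 12.08, 13.25 and 14.29 in si-Control, 13.58, 13.93 and 14.68 in GATA3 knockdown and 10.69, 12.53 and 12.82 in HIF-1α knockdown. On every slide the order was the same, with GATA3 knockdown highest and HIF-1α knockdown lowest, and in every group slide 1 was lowest and slide 3 highest. Every GATA3 knockdown array was above every HIF-1α knockdown array, which was so, in this direction, for 12.1% of all genes.

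GATA3 knockdown exceeded HIF-1α knockdown in STC2 by 2.05 on the log2 scale, which is 4.14-fold (SE 0.65, 95% interval 0.59 to 3.51, adjusted P = 0.356, limma) and was counted. Within slides the difference was 2.89, 1.40 and 1.86. At the unadjusted threshold it was counted with each of the 9 arrays left out and in 13 of 14 other settings. The exception was the methods' t-test. The value was 1.39 without HIF-1α knockdown replicate 1 and 1.21 with array brightness as a covariate. With the block its adjusted P was 0.049 in limma (SE 0.31, 95% interval 1.35 to 2.75).

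Against si-Control, STC2 was at −1.19 in HIF-1α knockdown (SE 0.65, 95% interval −2.65 to 0.27, adjusted P = 0.823, limma) and at 0.86 in GATA3 knockdown (SE 0.65, 95% interval −0.60 to 2.32, adjusted P = 1, limma). All 3 slides had the same direction in each, with −1.39, −0.72 and −1.47 in HIF-1α knockdown and 1.50, 0.68 and 0.40 in GATA3 knockdown. A rise on all slides in GATA3 knockdown was seen in 14.3% of all genes. With the block both were counted, with intervals from −1.90 to −0.49 (adjusted P = 0.413, limma) and from 0.16 to 1.56 (adjusted P = 0.974, limma). Leaving out si-Control replicate 1 gave −1.76 in HIF-1α knockdown, which was counted. Leaving out si-Control replicate 3 gave −0.65 there, leaving out HIF-1α knockdown replicate 1 gave −0.53 and array brightness as a covariate gave −0.39, none of which was counted. In GATA3 knockdown the value was 0.29 without si-Control replicate 1, 0.55 without GATA3 knockdown replicate 3 and 1.40 without si-Control replicate 3, and none of these was counted.

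STC1, the paralog of STC2, was at 14.59, 13.89 and 15.06 in si-Control and at 14.46, 13.89 and 14.87 in HIF-1α knockdown. In GATA3 knockdown it was at 15.46 and 14.85 on replicates 1 and 3, and the spot of replicate 2 was left out as non-uniform. Kept, that spot read 14.05. The si-Control and HIF-1α knockdown values followed each other slide by slide, and the difference after HIF-1α knockdown was −0.11 on the log2 scale (SE 0.38, 95% interval −0.97 to 0.75, adjusted P = 0.945, limma). In GATA3 knockdown it was 0.64 with 2 arrays (SE 0.43, 95% interval −0.33 to 1.60, adjusted P = 1, limma), with 0.86 on slide 1 and −0.21 on slide 3, and 0.35 with the block (SE 0.30). Slide 2, which lost its GATA3 knockdown value, was the lowest slide in both other groups. The 14 other settings gave values from 0.22 to 0.67, with 0.29 in the authors' log2 table. The STC1 and STC2 values were not set against each other, since they come from different probes.

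**Figure D3:**
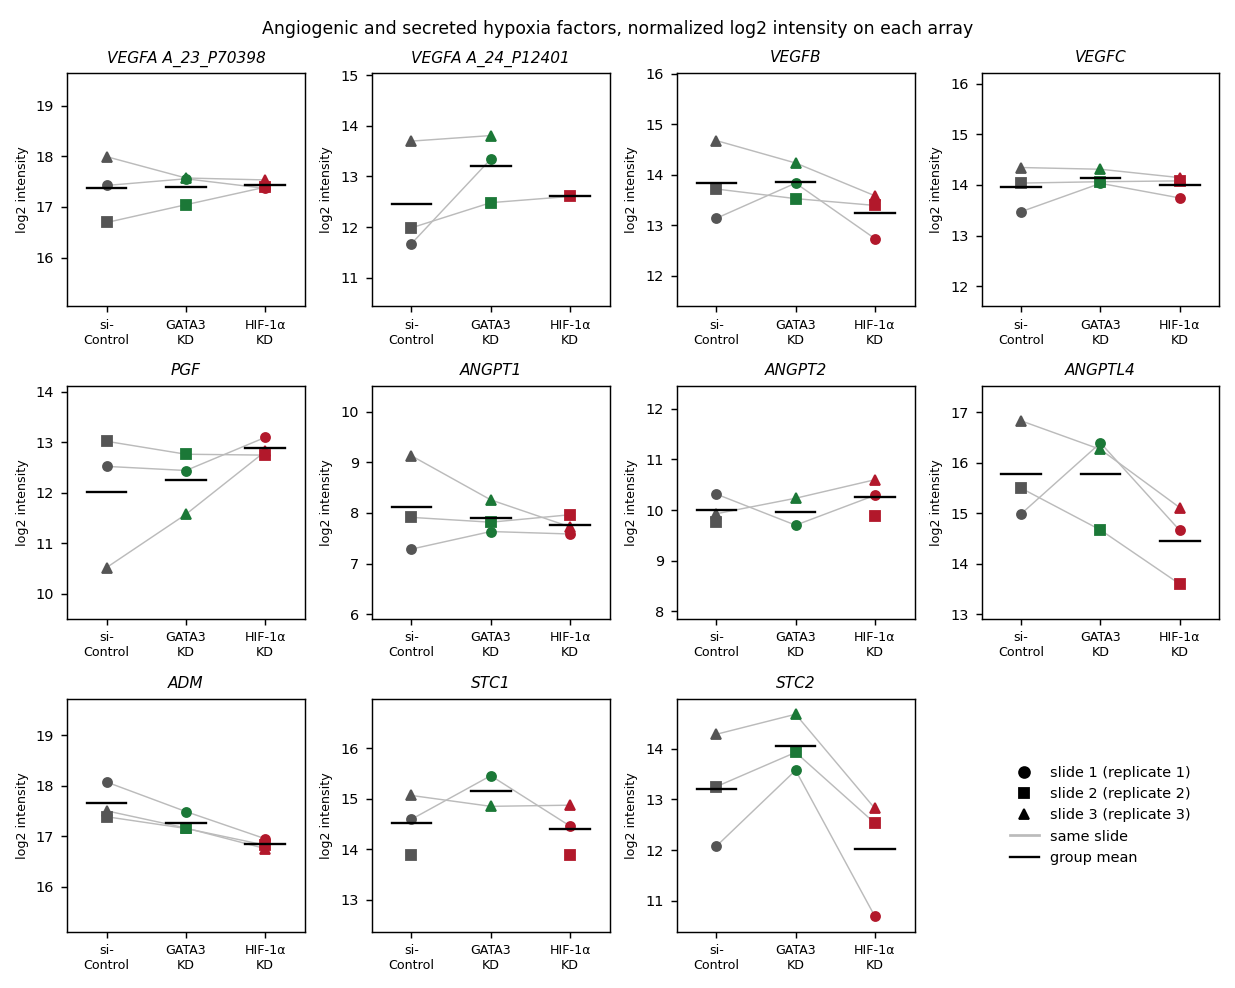
Normalized log2 intensity (vertical axis, a range of its own for each panel) of the 11 probes on each array, by group. The symbol gives the slide, grey lines join arrays of 1 slide and black bars are group means; values left out as non-uniform have no symbol. ADM in HIF-1α knockdown lies below all si-Control arrays, STC2 in HIF-1α knockdown lies below all GATA3 knockdown arrays, and both VEGFA probes overlap between groups.

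VEGFA was read by 2 probes of different brightness, A_23_P70398, listed by the scanner file under NM_001025370, and A_24_P12401, listed under NM_001025366. Both accessions are transcript variants of VEGFA, whose splicing gives several proteins. The brighter probe, which stands for the gene, was at 17.43, 16.69 and 17.99 in si-Control, 17.56, 17.05 and 17.57 in GATA3 knockdown and 17.37, 17.39 and 17.53 in HIF-1α knockdown. The si-Control arrays spread over a wider range than both knockdowns and enclosed all of their values. No spot was saturated.

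On this probe the change after HIF-1α knockdown was 0.06 on the log2 scale (SE 0.33, 95% interval −0.67 to 0.80, adjusted P = 0.967, limma), with −0.06, 0.70 and −0.46 within slides. Its sign turned with the scaling, to −0.19 with the processed signal at 75th percentile scaling and −0.38 with that scaling after normexp, where the median of all genes itself was at −0.13, and none of these was counted. In GATA3 knockdown it was 0.02 (SE 0.33, 95% interval −0.71 to 0.76, adjusted P = 1, limma), with 0.13, 0.35 and −0.42 within slides. The intervals allow a change of up to 1.74-fold in HIF-1α knockdown and 1.69-fold in GATA3 knockdown. In the direct comparison the brighter probe was at −0.04 (SE 0.33, 95% interval −0.77 to 0.70), and at 0.43 with the processed signal at 75th percentile scaling.

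The dimmer probe was at 11.67, 11.98 and 13.70 in si-Control and at 13.34, 12.48 and 13.81 in GATA3 knockdown. In HIF-1α knockdown 1 array was left, at 12.60, because the spots of replicates 1 and 3 were non-uniform; kept, they read 12.32 and 13.12. GATA3 knockdown was higher on all 3 slides, by 1.67, 0.50 and 0.11, but the groups overlapped and the log2 fold change of 0.76 was not counted (SE 0.57, 95% interval −0.55 to 2.07, adjusted P = 1, limma over all probes). Of the 2 VEGFA probes 0 were counted in either knockdown in limma, where 5.33% of all probes were counted in HIF-1α knockdown and 3.14% in GATA3 knockdown. With an array left out its value in GATA3 knockdown ranged from 0.37, without si-Control replicate 1, to 1.38, without si-Control replicate 3. It was counted as higher in the second of these, with array brightness as a covariate (0.72) and with the slide as a block when non-uniform spots were kept (0.75). In HIF-1α knockdown its value of 0.15 rests on 1 array (SE 0.80, 95% interval −1.70 to 2.00), whose spread is assumed to be that of the other groups. A difference between the probes in how they responded was not tested.

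VEGFB and PGF are ligands of the receptor FLT1, and VEGFC drives lymphatic vessel growth through FLT4. VEGFB was at 13.14, 13.72 and 14.67 in si-Control, 13.83, 13.53 and 14.23 in GATA3 knockdown and 12.74, 13.39 and 13.58 in HIF-1α knockdown. HIF-1α knockdown held the lowest array of every slide, with a log2 fold change of −0.61 (SE 0.40, 95% interval −1.50 to 0.29, adjusted P = 0.823, limma). Without si-Control replicate 1 it was −0.96 and counted, and with array brightness as a covariate it was −0.07. In GATA3 knockdown it was 0.02 (SE 0.40, 95% interval −0.88 to 0.92).

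PGF, placental growth factor, was at 12.52, 13.02 and 10.52 in si-Control, 12.44, 12.76 and 11.58 in GATA3 knockdown and 13.10, 12.74 and 12.82 in HIF-1α knockdown. The si-Control replicate 3 stood apart at the low end and set the size of the log2 fold change in HIF-1α knockdown, which was 0.86 with it (SE 0.57, 95% interval −0.41 to 2.14, adjusted P = 0.823, limma) and 0.12 without it. Without si-Control replicate 2 it was 1.36 and counted. In GATA3 knockdown PGF was at 0.24 (SE 0.57, 95% interval −1.04 to 1.52), and at −0.51 without si-Control replicate 3. VEGFC moved least between arrays of the 4 VEGF family genes, with values between 13.47 and 14.34 over all 9 arrays and fold changes of 0.04 in HIF-1α knockdown (SE 0.27, 95% interval −0.57 to 0.64) and 0.18 in GATA3 knockdown (SE 0.27, 95% interval −0.42 to 0.79).

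Angiopoietins bind the receptor TEK on endothelial cells, where ANGPT1 activates it and ANGPT2 can oppose ANGPT1. ANGPT2 was at 10.31, 9.77 and 9.93 in si-Control, at 9.70 and 10.23 on the 2 GATA3 knockdown arrays left after a non-uniform spot, and at 10.29, 9.89 and 10.60 in HIF-1α knockdown. The groups overlapped, with log2 fold changes of 0.26 in HIF-1α knockdown (SE 0.29, 95% interval −0.40 to 0.91) and −0.04 in GATA3 knockdown (SE 0.32, 95% interval −0.77 to 0.70), and the second turned to 0.10 with the spot kept and 0.13 in the authors' log2 table. ANGPT1, which was marked well above background on only 2 of the 9 arrays, read 7.29, 7.91 and 9.13 in si-Control, 7.63, 7.82 and 8.26 in GATA3 knockdown and 7.58, 7.97 and 7.73 in HIF-1α knockdown. The groups overlapped, and no fold change is printed in this paragraph for a probe that so few arrays measured. ANGPT1 is still drawn with the other fold changes and enters the counts and medians of the 10 genes. Its values under some other settings are given at the end.

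Receptors of these ligands were measured in the same cells from a list of 12 (FLT1, KDR, FLT4, NRP1, NRP2, TEK, TIE1, CALCRL, RAMP1 to RAMP3 and ACKR3). In HIF-1α knockdown 1 of the 12 was counted as higher and 0 as lower, with a median log2 fold change of 0.19. Across all genes tested 5.23% were counted in that comparison. The one counted was RAMP1, which pairs with CALCRL in the receptor of the peptide CGRP, and it rose by 0.69 (SE 0.28, adjusted P = 0.823, limma). CALCRL itself was at −0.76 and was not counted, but with the slide as a block it was (95% interval −1.28 to −0.24, adjusted P = 0.507, limma). In GATA3 knockdown 0 of the 12 were counted in limma, with a median of −0.03, where 2.97% of all genes were counted. KDR and TEK were well above background on 7 and 8 of the 9 arrays.

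Of 13 further family members, 11 were on the array (ADM2 and CALCB were not matched to a probe). None of the 11 was counted in limma in either knockdown, and the fold changes were between −0.19 and 0.70 in HIF-1α knockdown and between −0.29 and 0.47 in GATA3 knockdown. Across all genes 5.23% were counted in HIF-1α knockdown and 2.97% in GATA3 knockdown. VEGFD and ANGPTL5 were not well above background on any of the 9 arrays.

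Among 15 other secreted factors, 1 was counted as higher and 2 as lower in HIF-1α knockdown, with a median log2 fold change of −0.23. Across all genes 5.23% were counted in that comparison and 3.28% were counted as lower. LOX, an enzyme that cross-links collagen, fell by 2.40 (SE 0.55, adjusted P = 0.568, limma). EDN1, the precursor of the vessel-constricting peptide endothelin-1, fell by 1.03 (SE 0.27, adjusted P = 0.706, limma). KITLG, the ligand of the receptor KIT, was higher by 3.31 (SE 0.79, adjusted P = 0.814, limma), but only 1 of the 3 si-Control spots was left, so this rests on a single control array. With the slide as a block LEP, leptin, was counted as lower too (−0.68). In GATA3 knockdown 1 was counted as higher and 1 as lower, with a median of −0.13, where 2.97% of all genes were counted. Of 9 inhibitors of angiogenesis 0 were counted in limma in either knockdown, with medians of 0.17 in HIF-1α knockdown and −0.15 in GATA3 knockdown. With the slide as a block 1 was counted in each, THBS2 as higher in HIF-1α knockdown (1.21, SE 0.42, 2 arrays in that group) and SEMA3A as lower in GATA3 knockdown (−0.78, SE 0.29). In that fit 8.41% of all genes were counted in HIF-1α knockdown and 4.99% in GATA3 knockdown.

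The cellular, not secreted, HIF-1 targets of the same cells give the scale for these values. Of 12 such genes, 9 were counted as lower in HIF-1α knockdown and 12 of 12 were below 0, with a median log2 fold change of −1.18 against −0.23 for the 10 secreted and angiogenic genes and −0.01 for all genes. Across all genes 3.28% were counted as lower there. BNIP3, a mitophagy receptor, fell by 2.18 (SE 0.28, adjusted P = 0.221, limma). CA9, a carbonic anhydrase of the cell surface, fell by 1.74 (SE 0.31, adjusted P = 0.295, limma). PDK1, which holds back pyruvate oxidation, fell by 1.78 (SE 0.39, adjusted P = 0.534, limma), and the glycolytic enzyme PGK1 by 0.99 (SE 0.22, adjusted P = 0.543, limma). In GATA3 knockdown 1 of the 12 was counted as lower and 0 as higher, with a median of −0.07, where 2.97% of all genes were counted. With the slide as a block SLC2A1 was also counted as lower in HIF-1α knockdown, which made 10 of the 12. In that fit 5.29% of all genes were counted as lower. The study followed CA9, PGK1, SLC2A1 and SLC2A3 itself, and the lists were drawn up with earlier results of these arrays known, so these counts describe the lists and are no independent evidence.

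Over the 9 arrays, 15906 genes with a symbol were well above background on every array and were compared with VEGFA and ANGPTL4 by Pearson's r. The genes most like the brighter VEGFA probe were NAALADL2 (r = 0.96), FAXDC2 (0.91), FTHL17 (0.91), P2RX4 (0.90) and SPAG16 (0.90), and those 5 were all that reached 0.9. Among the genes most like ANGPTL4 were HSP90AB1 (r = 0.99), GPC6 (0.97), ARRDC2 (0.97) and HCFC1-AS1 (0.96), of 76 that reached 0.9. These values are a description over 9 arrays that share 3 slides, 3 groups and the brightness of each array.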

How the data were processed

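RNA of 9 samples, 3 a group, was measured on Agilent arrays with 60901 non-control spots. The scanner files that the authors deposited (Feature Extraction 10.5.1.1) give spot and local background intensity on a linear scale, before any normalization across arrays. A second deposited table holds log2 values, 99.5% of them per array within 0.001 of the processed signal's log2 less a constant, with column medians from −2.40 to −2.07; it served as an alternative.

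The median spot intensity was corrected with normexp (offset 50), non-uniform spots were left out, log2 values of non-control spots were quantile normalized, repeat spots were averaged by probe, and each gene was read from its brightest probe. Accessions were matched to RefSeq symbols for 31104 of 58201 probes (22439 symbols); the others kept the file's accession. The 3 groups were fitted in 1 model with limma 3.58.1 (R 4.3.3) over all genes, and VEGFA also over all probes. A gene was counted at an unadjusted two-sided P of 0.05, as in the supplementary methods. P values were adjusted by Benjamini-Hochberg over all genes or probes tested. Same-numbered si-Control and GATA3 knockdown arrays, which shared a slide, deviated from their group means with correlations of 0.23, 0.58 and 0.72. Correlations between arrays of different number are not given, and the labels name no pairs. These values therefore do not show that the samples were paired. The fit was tested on simulated data. The number of arrays limits the precision.

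The members and lists were chosen with earlier results of these data known. Genes named beyond the members are the 2 targets, from each list those counted in either knockdown (at most 4 by smallest P) and the 5 most correlated with VEGFA and with ANGPTL4; ranges and list make-up are also given by name. A few genes that this rule picks are not reported here. CALCRL, KDR, TEK, LEP, THBS2, SEMA3A, SLC2A1, SLC2A3 and the markers and family members outside this rule were named after their values were seen. Alternatives were other background corrections and scalings, the authors' table, non-uniform spots kept, dim probes filtered, the mean of a gene's probes, a replicate block (which is also the slide), separate fits, the methods' t-test, a trended and robust eBayes, array brightness as a covariate, adjusted P and each array left out. The block with non-uniform spots kept was added after seeing the data. The scanner files' build is hg19; gene coordinates are from the promoter table only.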

Additional observations from a re-analysis of the deposited data

How the results depend on the processing

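Among 730 values of single genes or probes under other settings, 647 kept their direction and their side of the threshold, 52 turned sign, 30 passed the threshold where the reported value did not, and 1 no longer passed, STC2 in the direct comparison under the methods' t-test. ADM in HIF-1α knockdown kept its direction and its side of the threshold under all of them. These values all keep the unadjusted threshold, and by adjusted P ADM was not counted (adjusted P = 0.823, limma). The cause of the changes was not tested.

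A replicate block was fitted on the replicate number, and so on the slide. Same-numbered arrays of si-Control and HIF-1α knockdown deviated with correlations of 0.62, 0.11 and 0.087, and those of the 2 knockdowns with 0.35, −0.19 and 0.12, so in these comparisons the numbers share a slide, a technical batch read from the headers, without every pair deviating together. With the block the count was 3 in HIF-1α knockdown, 1 in GATA3 knockdown and 2 in the direct comparison, also with non-uniform spots kept, where 1 VEGFA probe was counted in GATA3 knockdown.

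In HIF-1α knockdown 2 of the 10 genes were counted with 75th percentile scaling after normexp, with separate fits of 6 arrays and with eBayes trend and robust (ADM and ANGPTL4 each time), 0 with adjusted P, and between 1 and 4 with an array left out, 4 being without si-Control replicate 1. In GATA3 knockdown between 0 and 0 were counted with an array left out. In the direct comparison 2 were counted with the processed signal, the authors' table and 75th percentile scaling after normexp (ADM and STC2), and with separate fits and trend and robust (ANGPTL4 and STC2), 0 with adjusted P, and between 1 and 2 with an array left out. Of the VEGFA probes 1 was counted in GATA3 knockdown with array brightness as a covariate, and between 0 and 1 with an array left out. The share of all genes counted under these settings is not given here, and that share moves with the fit. In HIF-1α knockdown it was 5.23% without the block and 8.41% with it. The counts in this paragraph are therefore no result about the 10 genes.

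Under 75th percentile scaling after normexp the median of all genes was at −0.13 in HIF-1α knockdown and 0.18 in the direct comparison. Relative to it VEGFA was at −0.25 and 0.19. Relative to the median of all genes in the same 2 comparisons, VEGFA was at −0.21 and 0.38 with the processed signal. In the authors' table it was at −0.26 and 0.46.

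In HIF-1α knockdown the values that turned sign were those of VEGFA at −0.19 with the processed signal, −0.19 in the authors' table and −0.38 with 75th percentile scaling after normexp, of VEGFC at −0.048 with the processed signal and −0.042 in the authors' table, and, with brightness as a covariate, of ANGPT1 at 0.17 and STC1 at 0.024. In GATA3 knockdown they were VEGFA at −0.0084 with 75th percentile scaling after normexp and −0.0036 with non-uniform spots kept, with or without the block, VEGFB at −0.0035 with brightness, ANGPT2 at 0.13 in the authors' table, 0.087 with 75th percentile scaling after normexp, 0.10 with non-uniform spots kept, with or without the block, and 0.0066 with brightness, and ANGPTL4 at −0.16 with 75th percentile scaling after normexp and −0.022 with brightness. In the direct comparison they were VEGFA at 0.43 with the processed signal, 0.41 in the authors' table and 0.37 with 75th percentile scaling after normexp, and, with brightness, VEGFC at −0.12, PGF at 0.15 and ANGPT1 at −0.40.

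With an array left out, HIF-1α knockdown values ranged from −0.28 to 0.37 for VEGFA, from −0.20 to 0.23 for VEGFC, from −0.76 to 0.16 for ANGPT1, from −0.42 to 0.16 for STC1 and from −0.24 to 0.78 for the dimmer VEGFA probe. GATA3 knockdown values ranged from −0.32 to 0.33 for VEGFA, −0.33 to 0.44 for VEGFB, −0.056 to 0.38 for VEGFC, −0.51 to 0.74 for PGF, −0.62 to 0.30 for ANGPT1, −0.30 to 0.23 for ANGPT2 and −0.39 to 0.56 for ANGPTL4. In the direct comparison they ranged from −0.13 to 0.13 for VEGFA and from −0.033 to 0.28 for ANGPT1.

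The 3 arrays a group limit the precision. A p that missed the threshold does not show that a gene did not change, and ANGPT1 was near background.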
